A study of Schizosaccharomyces pombe with 10 samples.

Results

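The chromatin immunoprecipitation of GFP-tagged Myo1 from phosphate-starved fission yeast is described here against its NoIP control, from 5 of the 10 libraries of the series. Myo1-GFP low phosphate (3 libraries) came from Schizosaccharomyces pombe of the strain named Myo1-GFP, and NoIP low phosphate (2 libraries) from the strain named wild-type. Both strains had been moved from YES, a rich yeast extract medium, into YES LowPi for 4 h at 30°C at 0.5 O.D./ml, were fixed with 3% formaldehyde for 30 min, and were sonicated, and the labels describe the same GFP-Trap bead pulldown for every library. The other 5 libraries (3 Myo1-GFP high phosphate, 2 NoIP high phosphate) differ only in that YES was the final medium, and serve here to set the low phosphate values beside. The site and the promoter of the GFP fusion in the ChIP strain are not given in the sources used here, nor is whether replicates came from separate cultures, so p-values measure only the spread between these libraries. The members were taken by the column labels: all 125720 windows on chromosomes I, II and III, each 200 bp long and placed every 100 bp, and the 6073 genes to which the table assigns them.

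Myo1 is the single class I myosin of fission yeast, a motor that binds membrane lipids through its tail and drives actin assembly in endocytic patches through the Arp2/3 complex. It works there with the activators Wsp1 and Vrp1 and the calmodulin-related light chain Cam2. Class I myosins of animals also have nuclear forms that act with RNA polymerases on chromatin. Phosphate starvation of fission yeast induces the acid phosphatase Pho1 and the transporters Pho84 and Tgp1 under the transcription factor Pho7.

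Levels are given as log2 of the deposited signal plus 1, minus the library's median window, so that 0 is the typical window of that library and 1 is about 2-fold above it. Without replicate 3 means that the shallow Myo1-GFP replicate 3 was left out. Its values moved in steps so coarse that the median window held 11 of them, against 311 and 199 steps in Myo1-GFP replicates 1 and 2, and 135 and 260 steps in NoIP replicates 1 and 2. Whether 1 step is 1 read is not stated. It also had 277 windows at 0 against 15 to 20 in the other 4 low phosphate libraries. The mean level of mitochondrial windows was 5.53 in Myo1-GFP replicate 3 against 1.70 and 2.09 in Myo1-GFP replicates 1 and 2, and against 2.39 and 1.67 in NoIP. The part of these differences in any result was not tested, and results are given with and without that library.

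The longest stretch with signal 1.5-fold or more above NoIP in the Myo1-GFP libraries lay directly upstream of myo1 itself. The gene is on the minus strand of chromosome II (1023963 to 1027973), and sec26, which encodes a subunit of the COPI vesicle coat, lies upstream of it on the same strand, with its annotated 3′ end at 1028878. Between them the annotation places SPNCRNA.4981, a long non-coding RNA on the plus strand (1027953 to 1028664). Differences between Myo1-GFP and NoIP were nearly level across the interval between myo1 and sec26, so no window there marks a centre. The 300 bases around the window with the largest difference in that interval are shown. They are read 5′ to 3′ along the coding strand of myo1 at chrII:1028351-1028650 in RefSeq's genome, whose 3 chromosomes have the lengths found in the table. Capitals mark the window from 1028401 to 1028600.
myo1 upstream: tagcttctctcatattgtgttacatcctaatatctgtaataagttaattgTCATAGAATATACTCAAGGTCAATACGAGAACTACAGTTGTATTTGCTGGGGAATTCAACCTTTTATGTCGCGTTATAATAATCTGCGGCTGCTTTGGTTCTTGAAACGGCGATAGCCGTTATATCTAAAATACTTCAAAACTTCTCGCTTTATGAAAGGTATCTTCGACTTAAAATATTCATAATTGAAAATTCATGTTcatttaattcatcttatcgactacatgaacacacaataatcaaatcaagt

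This stretch had a GC content of 32.0%. The letters TATAAA, searched on both strands, did not occur in it, and were found in 51.2% of the 5112 stretches of 300 bases before the annotated starts of protein-coding genes. The positions differ, since the printed stretch begins at 1028351 and the annotated start of myo1 is at 1027973. No search is given for the bases directly before that start.

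In the capitalised window, the level was 1.50, 1.69 and 1.90 in the 3 Myo1-GFP libraries, against 0.54 and 0.34 in the NoIP libraries. The lowest Myo1-GFP library was thus well above the highest NoIP library. Averaged over the windows lying wholly between myo1 and sec26, the level was 1.32, 1.47 and 1.51 in Myo1-GFP and 0.38 and 0.22 in NoIP (means 1.43 ± 0.10, SD, n = 3, and 0.30 ± 0.11, SD, n = 2). The groups did not overlap, and the difference was 1.13 on the log2 scale, or 2.19-fold. A two-sided exact permutation test over the 5 libraries gave p = 0.10, the smallest that its 10 arrangements allow. Without replicate 3 the difference was 1.09. The site had been picked out earlier in these same data, so the test describes it and does not stand as independent evidence. Group and strain also coincided, since every Myo1-GFP library came from the tagged strain and every NoIP library from wild-type. Whether the excess was immunoprecipitated DNA or a difference in the DNA of the tagged strain at this locus was not tested.

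With distance, the excess rose, stayed level and then declined. In windows centred 3773 to 173 bp inside the start of myo1, differences without replicate 3 lay between −0.19 and 0.31. They reached 0.39 at 73 bp inside the start and 0.55 at 27 bp upstream of it. From 127 to 927 bp upstream they lay between 1.01 and 1.16, and past the annotated 3′ end of sec26 they declined to 0.90 at 1027 bp, 0.61 at 1227 bp and 0.03 at 1427 bp. Counted by windows 1.5-fold or more above NoIP with no overlap between libraries, the run held 12 windows over 1300 bp (II, 1028001 to 1029300). The far end of the run therefore covered the 3′ end of sec26, while the near end stopped short of the myo1 coding sequence, which begins at 1027930.

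**Figure D1:**
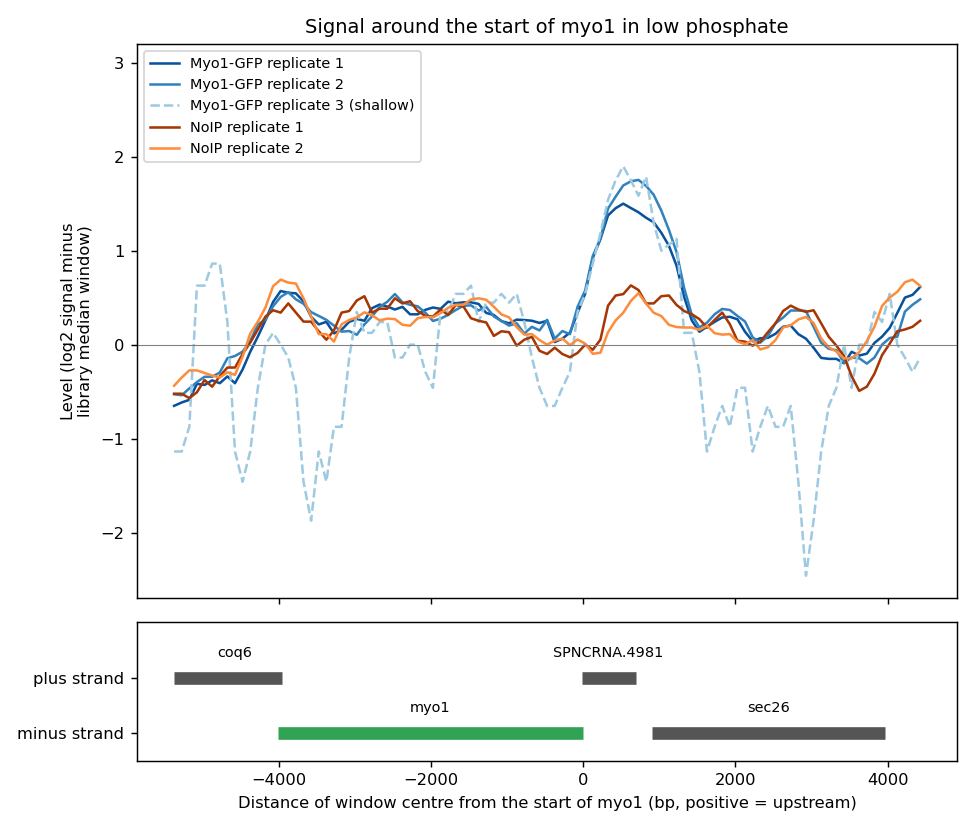
The upper panel plots the level of each window (log2 signal minus the library's median window) in the 5 low phosphate libraries against distance from the start of myo1, with positive distances upstream, and the lower panel places the genes. In the window centred 527 bp upstream, the 3 Myo1-GFP libraries stand at 1.50 to 1.90 and the 2 NoIP libraries at 0.34 and 0.54. Elsewhere the dashed shallow library departs from the other 4.

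No other run of more than 1 window reached 1.5-fold above NoIP in the 4 deeper low phosphate libraries. Windows in which Myo1-GFP replicates 1 and 2 were both above NoIP, by 1.5-fold or more on average, numbered 13 of 125720 (0.0103%), of which 12 formed the run upstream of myo1 and 1 lay in ura4. At 1.75-fold there were 10 such windows and at 2-fold 9, in both cases with none outside the run. The window in ura4 had almost no signal. Its level was −4.11 and −3.83 in Myo1-GFP replicates 1 and 2, against −4.75 and −4.43 in NoIP. In the other direction, only 2 windows were below NoIP by 1.5-fold or more. At 1.25-fold 594 windows were above and 1088 below, and the longest upward run held 14 windows and the longest downward run 12.

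With replicate 3 included, 435 windows (0.346%) were 1.5-fold or more above NoIP without overlap, in 275 separate runs. The run upstream of myo1 was still the longest of them at 12 windows, against 6 windows in the next. At 2-fold or more 8 windows were left, and all 8 were in that run. Downward windows numbered 2643 at 1.5-fold, with a longest run of 12 windows as well, and 337 at 2-fold, with a longest run of 5. Without replicate 3 the downward windows at 1.5-fold were 2.

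By limma across 125712 windows and all 10 libraries, no window passed an adjusted p of 0.05 (0%), and 157 had an unadjusted p under 0.05. The 12 windows upstream of myo1 had unadjusted p-values of 9.6e-05 to 0.154 and a common adjusted p of 0.97. When libraries were weighted by their fit, Myo1-GFP low phosphate replicate 3 had the lowest weight, 0.066 against 5.45 and 3.93 for Myo1-GFP replicates 1 and 2 in the gene fit. With such weights 10 windows passed (0.00795%), all 10 higher in Myo1-GFP and all within the run (II, 1028001 to 1029100). Their differences were 0.90 to 1.16 and their adjusted p-values 4.8e-04 to 0.040.

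Myo1-GFP was also above NoIP over the same interval in high phosphate, by a smaller amount. Windows were not ranked across the genome in that medium. Averaged over the windows between the genes, the level was 0.96, 1.03 and 1.33 in Myo1-GFP high phosphate against 0.43 and 0.08 in NoIP high phosphate, with no overlap. The difference was 0.85 on the log2 scale, against 1.13 in low phosphate (exact permutation p = 0.10 in each, the smallest possible). Over the 12 windows of the run, the Myo1-GFP minus NoIP difference was 1.03 in low phosphate and 0.52 in high phosphate, or 1.0 and 0.59 in the deeper libraries alone.

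In the window centred 927 bp upstream, Myo1-GFP minus NoIP was 1.01 in low phosphate and 0.22 in high phosphate (1.06 and 0.43 in the deeper libraries, which leave out Myo1-GFP high phosphate replicate 3 with its 8 steps per median window). In the 3 windows beyond it, at 1027 to 1227 bp, the high phosphate difference was −0.24 to −0.01 with that library, which stood at −0.41, −1.0 and −0.19 there, and 0.17 to 0.48 without it. Of the 12 windows, 2 had an unadjusted p under 0.05 for this difference of differences, the lowest being 0.028, and none of the 12 passed after limma's adjustment over all windows (lowest adjusted p of 1.0). Myo1-GFP minus NoIP was thus not shown to differ between the media at this site.

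**Figure D2:**
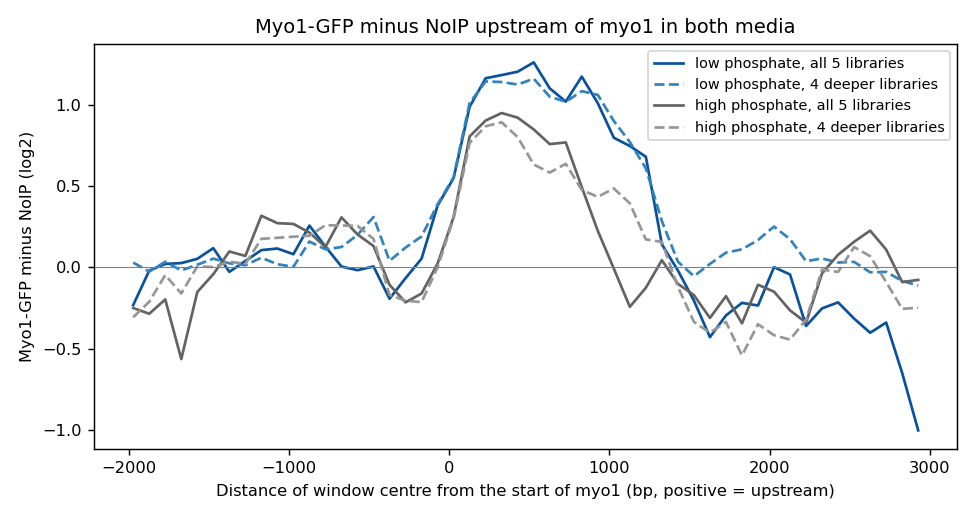
Myo1-GFP minus NoIP (log2) per window is plotted against distance from the start of myo1 for low phosphate and high phosphate, with all 5 libraries (solid) and the 4 deeper ones (dashed) of each medium. In low phosphate the difference stays near 1 from 127 to 927 bp upstream, and in high phosphate it is lower, with 0.22 at 927 bp in all 5 libraries.

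Over myo1 as a gene, the groups overlapped. Its 41 windows averaged 0.35, 0.34 and −0.06 in Myo1-GFP against 0.21 and 0.24 in NoIP. Myo1-GFP replicates 1 and 2 were above both NoIP libraries and replicate 3 below them. The fitted difference was −0.01 ± 0.14 (SE; limma adjusted p = 0.99), and 0.12 without replicate 3. For sec26 the level was 0.26, 0.33 and −0.31 in Myo1-GFP against 0.15 and 0.16 in NoIP, again with only the shallow library low, and the difference was −0.07 ± 0.18 (0.13 without replicate 3). On the other side, coq6, which encodes an enzyme of ubiquinone synthesis, had levels of −0.21, −0.12 and −0.08 in Myo1-GFP against −0.23 and −0.08 in NoIP. The gene values of myo1 and sec26 include windows of the run upstream of myo1. Run windows starting at 1028001 and 1028101 were assigned to myo1, and those starting from 1028701 to 1029101 to sec26. The part of these windows in either gene's difference was not tested.

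Across the genome, Myo1-GFP and NoIP profiles in low phosphate were nearly the same profile. At the gene level, Myo1-GFP replicate 1 and NoIP replicate 2 had the smallest spread of all 10 pairs, with an SD over genes of 0.086 on the log2 scale. The pair of deeper Myo1-GFP libraries differed by 0.099 and the pair of NoIP libraries by 0.173. The remaining pairs of a deeper Myo1-GFP library with a NoIP library fell between 0.108 and 0.174, so membership in a group did not set the distance. All 4 pairs that held Myo1-GFP replicate 3 had an SD of 0.606 to 0.614. Across the 6073 genes, Pearson's r between deeper libraries was 0.96 to 0.98 whatever the group, and 0.53 to 0.57 with replicate 3. Genes are not independent replicates, and all libraries share the sequence and mappability of each gene.

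**Figure D3:**
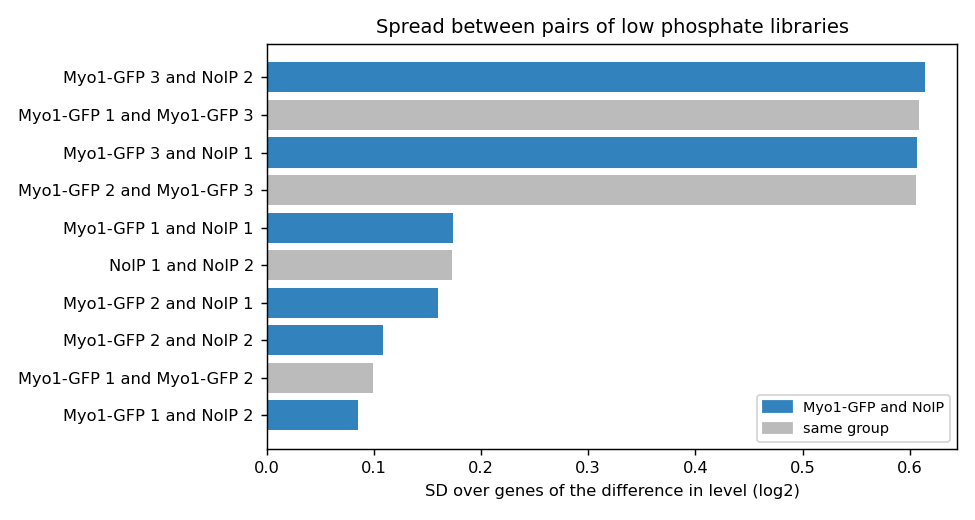
Bars give the SD over 6073 genes of the difference in level (log2) for each pair of low phosphate libraries, blue for a Myo1-GFP with a NoIP library and grey for libraries of the same group. The smallest, 0.086, is between Myo1-GFP replicate 1 and NoIP replicate 2, and the 4 pairs with Myo1-GFP replicate 3 reach 0.606 to 0.614.

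No gene passed the limma test at an adjusted p of 0.05 (0 of 6073, 0%), and 18 genes had an unadjusted p under 0.05. The smallest adjusted p was 0.97. Without replicate 3, the fitted difference was within 1.25-fold for 99.1% of genes and within 1.5-fold for all but 1 gene, ura4, which was almost without signal in every low phosphate library. With replicate 3, 98.2% of genes lay within 1.5-fold, 105 genes were lower by more and 2 higher by more. All 3 Myo1-GFP libraries were above both NoIP libraries in 313 genes (5.15%) and below both in 773 (12.7%). For Myo1-GFP replicates 1 and 2 alone, these counts were 799 (13.2%) and 1115 (18.4%). Under quantile normalization the split with all 3 libraries was 432 above and 427 below, so the surplus of lower genes was not present under that scaling.

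**Figure D4:**
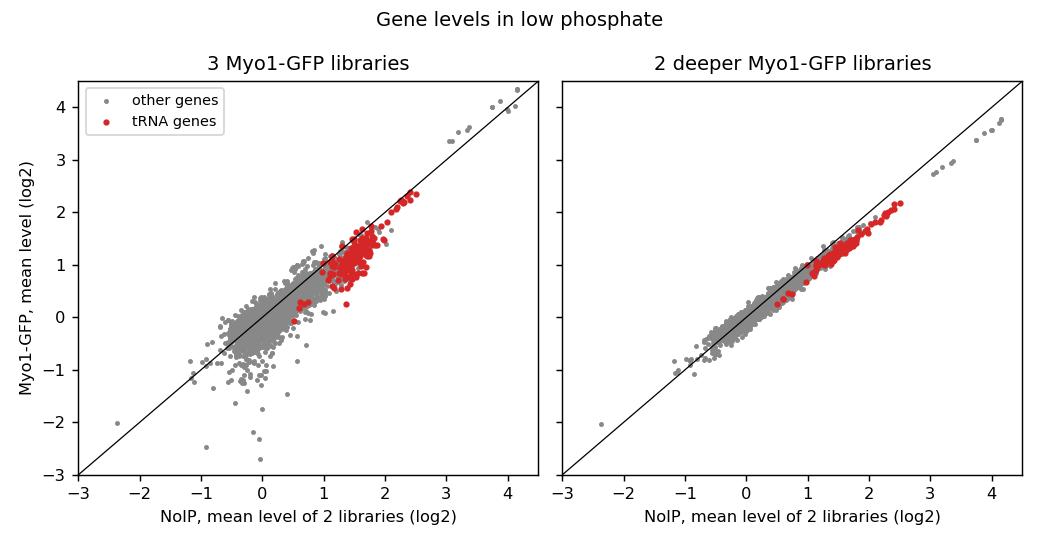
Mean gene levels (log2) in Myo1-GFP are plotted against those in NoIP for low phosphate, with all 3 Myo1-GFP libraries on the left and the 2 deeper ones on the right; tRNA genes are red, the line marks equality, and 3 genes lie outside the axes. Without replicate 3 the points lie close to the line (SD of the difference 0.094, against 0.215 with it), and 99.4% of tRNA genes fall below it.

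The genes with the smallest unadjusted p (at least 3 windows each) were the antisense RNA SPNCRNA.1096, the non-coding RNAs SPNCRNA.835 and SPNCRNA.988, dpm2, which encodes a subunit of dolichol-phosphate mannose synthase, and the alanine tRNA gene SPATRNAALA.06. SPNCRNA.1096 was the only one of them that was higher. Its level was −0.93, −0.73 and −0.86 in Myo1-GFP against −1.21 and −1.16 in NoIP, which is a low-signal locus in all 5 libraries. The difference was 0.34 ± 0.11 (SE; unadjusted p = 0.0098, limma adjusted p = 0.97), and 0.35 without replicate 3. In high phosphate its difference was 0.29 and the groups did not overlap either.

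For dpm2 the level was 0.30, 0.17 and −0.17 in Myo1-GFP against 0.61 and 0.46 in NoIP, with a difference of −0.43 ± 0.18 (limma adjusted p = 0.97). SPNCRNA.988 had 0.98, 0.85 and −0.01 in Myo1-GFP against 1.39 and 1.17 in NoIP. SPNCRNA.835 had 0.87, 0.76 and 0.43 against 1.16 and 1.0 in NoIP. In these 3 loci every Myo1-GFP library was below every NoIP library, and this was also so in high phosphate.

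The largest differences without overlap rested on the shallow library. Among increases, sap10, a subunit of splicing factor 3B, had −0.40, −0.30 and 0.45 in Myo1-GFP against −0.80 and −0.42 in NoIP. Its difference of 0.52 became 0.26 without replicate 3. The other 4, uri1, ema19, hsp3105 and SPNCRNA.187, had differences of 0.48 to 0.51, and 0.18 to 0.23 without replicate 3. Among decreases, SPNCRNA.117 stood at −0.13, −0.26 and −7.69 in Myo1-GFP against 0.04 and −0.12 in NoIP, with a difference of −2.66 that became −0.16 without replicate 3. SPNCRNA.699, SPNCRNA.867, SPNCRNA.1410 and nxt2 likewise had differences of −1.23 to −0.83 with replicate 3, and −0.23 to −0.03 without it. Limma's adjusted p was 0.97 for all 10 of these genes.

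Without replicate 3, chosen after their values had been seen, the largest increases among genes with at least 3 windows and no overlap between libraries were, after SPNCRNA.1096 (0.35), the antisense RNA SPNCRNA.1230 (0.30), dhm1 (0.28) and hht1, which encodes a histone H3 (0.27). The hht1 level was 0.17, 0.41 and 0.35 in Myo1-GFP against 0.00 and 0.04 in NoIP. All 3 Myo1-GFP libraries were above both NoIP libraries, and the fitted difference was 0.29 ± 0.20 (limma adjusted p = 0.97). In high phosphate the hht1 difference was −0.12, and −0.33 in the deeper libraries. The largest decreases chosen in the same way were somewhat larger in size, with SPAC6G10.10c at −0.38, the glutamic acid tRNA genes SPBTRNAGLU.05 and SPATRNAGLU.02 at −0.38 and −0.37, and SPAPB15E9.02c, a dubious gene, at −0.37. For SPAC6G10.10c the level was 0.94, 1.03 and 2.05 in Myo1-GFP against 1.43 and 1.29 in NoIP, so that replicate 3 was above both NoIP libraries.

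Among the tRNA genes, which RNA polymerase III transcribes from promoters inside the gene, most had lower signal in Myo1-GFP. Their median level was 1.20, 1.33 and 0.93 in Myo1-GFP against 1.65 and 1.37 in NoIP. The 2 NoIP libraries were thus the highest, with NoIP replicate 2 only just above Myo1-GFP replicate 2. The median difference over 166 genes was −0.35 (−0.26 without replicate 3), against −0.06 (−0.01) over all genes. All 3 Myo1-GFP libraries were below both NoIP libraries in 90 of the 166 (54.2%, against 12.7% of all genes), and in 111 (66.9%, against 18.4%) without replicate 3. The fitted difference was negative in 95.8% of tRNA genes, and in 99.4% without replicate 3. No tRNA gene passed the limma test, and 6 had an unadjusted p under 0.05.

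The shift was similar across tRNA identities: without replicate 3, the median difference was −0.33 to −0.18 for each of the 20 amino acids, read from the 3 letters in the gene ID (the table's description names another amino acid for 6 genes). All 13 serine and 11 of 12 lysine tRNA genes were below NoIP in both deeper Myo1-GFP libraries, against 3 of 9 isoleucine tRNA genes. The share was 66.9% over all tRNA genes and 18.4% over all genes. The 23 tRNA genes inside the centromeres had a median difference of −0.31 without replicate 3, and the 143 elsewhere −0.25. Only 5 of the 23 (21.7%) were below NoIP in both deeper Myo1-GFP libraries, against 106 of the 143 (74.1%). Median levels of the 23 were 1.02 and 1.29 in the deeper Myo1-GFP libraries, against 1.755 and 1.19 in NoIP, so the groups overlapped. Some isoleucine tRNA genes lie inside the centromeres, and the part of location in the counts per amino acid was not tested. An identical copy existed for 129 of the 166 genes, and how reads of such copies were placed is not given in the sources used here. The 37 genes with a sequence of their own had medians of −0.39 and, without replicate 3, −0.26.

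In high phosphate the median level of tRNA genes was 0.62, 0.77 and 1.51 in Myo1-GFP against 1.05 and 0.84 in NoIP. Myo1-GFP high phosphate replicates 1 and 2 were below both NoIP libraries, and the shallow replicate 3 was above them. The median difference was 0.02 with replicate 3 and −0.26 without it, when 97 of 166 genes (58.4%, against 21.8% of all genes) were below NoIP in both Myo1-GFP libraries. In both media, then, the deeper Myo1-GFP libraries were the lower ones at tRNA genes. The high phosphate share was not particular to tRNA genes. It was 80.0% for snRNA, 78.8% for 5S rRNA, 78.6% for stress, 77.8% for glycolysis and fermentation and 75.0% for histone genes. Lower shares were found for cytosolic ribosomal protein (48.7%), snoRNA (41.4%), actin patch and endocytosis (37.0%) and translation elongation genes (14.3%).

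3 tRNA genes are printed in the sense direction, since they hold the smallest p among tRNA genes with at least 3 windows (SPATRNAALA.06) and the ends of the range of differences. Capitals mark the first match to GTTCNANNC, the core letters of the internal B box that the polymerase III factor TFIIIC binds, which was found in 91.6% of the 166 genes searched on the coding strand.
SPATRNAALA.06: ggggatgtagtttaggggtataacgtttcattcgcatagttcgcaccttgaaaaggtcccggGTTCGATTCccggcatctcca
SPBTRNAASN.04: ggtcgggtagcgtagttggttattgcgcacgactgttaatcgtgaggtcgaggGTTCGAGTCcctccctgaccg
SPBTRNASER.05: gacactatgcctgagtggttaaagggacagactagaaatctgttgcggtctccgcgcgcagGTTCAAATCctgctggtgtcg

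SPATRNAALA.06 (chrI:4796977-4797059, plus strand) has no identical copy. Its level was 1.14, 1.20 and 0.76 in Myo1-GFP against 1.62 and 1.32 in NoIP, with a difference of −0.44 ± 0.18 (SE; unadjusted p = 0.039, limma adjusted p = 0.97). SPBTRNASER.05, 1 of 7 identical serine tRNA genes, had 1.08, 1.16 and −1.46 in Myo1-GFP against 1.49 and 1.24 in NoIP, so its difference of −1.11 came mostly from replicate 3 (−0.25 without it). SPBTRNAASN.04 had 1.36, 1.46 and 2.06 in Myo1-GFP against 1.64 and 1.40 in NoIP, with a difference of 0.11, or −0.11 without replicate 3.

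The tRNA genes shared this direction with other genes of high NoIP signal. When genes were split into 5 equal groups by their NoIP level, the median difference was 0.04 in the lowest group and −0.19 in the highest (0.04 and −0.10 without replicate 3). In the highest group, 30.5% of genes had all Myo1-GFP libraries below NoIP, against 1.89% in the lowest. The median level in that highest group was 0.56, 0.61 and 0.38 in Myo1-GFP against 0.75 and 0.60 in NoIP, so NoIP replicate 1 was the highest there. Since the NoIP level enters both the split and the difference, a slope of this kind can come from the split itself. tRNA genes were also GC-rich (median 53.7%, against 36.6% for all genes) and covered few windows (median 3, against 17). The group of genes with the fewest windows had a median difference of −0.12, against −0.06 in the group with the most. The part of signal level, GC content and gene size in the tRNA values was not tested.

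5S rRNA genes, also polymerase III genes, had median levels of 0.80, 0.87 and 1.10 in Myo1-GFP against 1.19 and 0.96 in NoIP. Here the shallow library was the highest of the Myo1-GFP libraries, and the groups overlapped. The median difference over 33 genes was −0.13, or −0.19 without replicate 3, when 21 of 33 (63.6%, against 18.4% of all genes) were below NoIP in both deeper libraries and 97.0% had a negative difference. SPRRNA.07 had the lowest difference (−0.61) and SPRRNA.17 the highest (0.17). The 29 snoRNA genes had median levels of 0.76, 0.84 and −0.10 in Myo1-GFP against 0.97 and 0.85 in NoIP. As for tRNA genes, all 3 Myo1-GFP medians were below both NoIP medians. The median difference of snoRNA genes was −0.27, but −0.04 without replicate 3, with differences from −0.93 for snR33 to 0.05 for SPNCRNA.1483. The 5 snRNA genes ranged from −0.74 for snu5 to −0.05 for snu2. Long non-coding RNA genes (1006) had a median difference of −0.08, and protein-coding genes (4728) of −0.05. In all libraries 267 protein-coding genes (5.65%, against 5.15% of all genes) were above NoIP and 454 (9.60%, against 12.7%) below it. Without replicate 3 these counts were 699 (14.8%, against 13.2% of all genes) and 667 (14.1%, against 18.4%).

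Genes inside the 3 centromeres (49 genes, between the outermost annotated centromeric RNAs) had median levels of 0.52, 0.72 and 1.08 in Myo1-GFP against 1.05 and 0.56 in NoIP. The groups were interleaved, and the median difference was −0.09, or −0.24 without replicate 3. Within 40 kb of the ends of chromosomes I and II, the median levels of 51 genes were −0.06, −0.05 and 0.54 in Myo1-GFP against 0.26 and −0.08 in NoIP. The shallow Myo1-GFP library and NoIP replicate 1 were high, and the median difference was −0.01, or −0.14 without replicate 3.

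**Figure D5:**
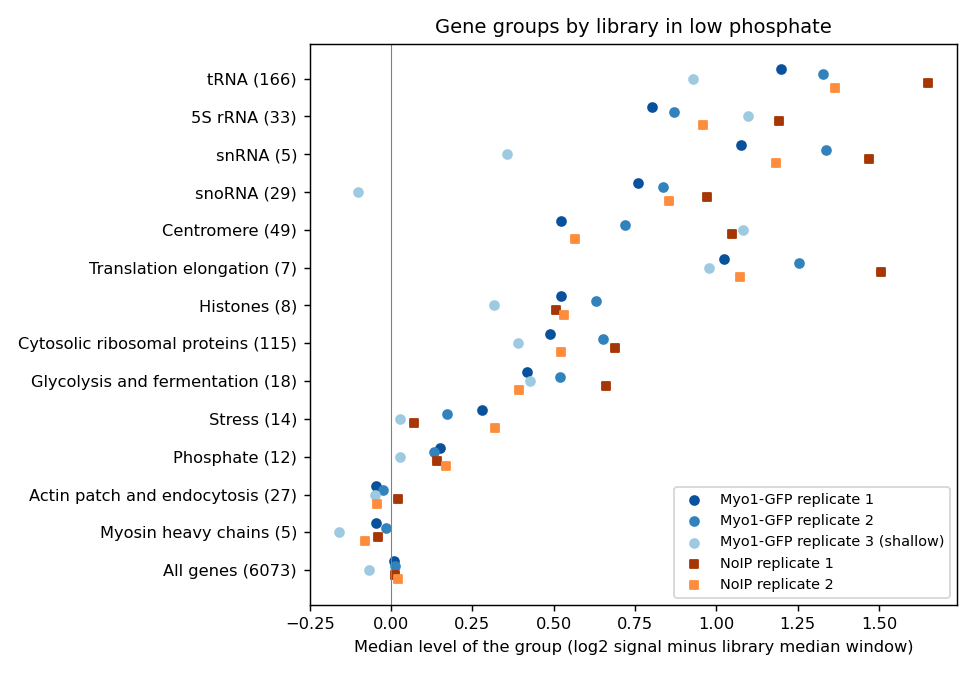
Points give the median level (log2 signal minus the library's median window) of each gene group in each low phosphate library, with the number of genes in brackets; circles are Myo1-GFP and squares NoIP. For tRNA genes the 3 circles (0.93 to 1.33) lie below both squares (1.37 and 1.65). The same is so for snoRNA genes (−0.10 to 0.84, against 0.85 and 0.97), while for most other groups circles and squares are interleaved.

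Among the genes that low phosphate medium calls on, none was distinguished by Myo1-GFP signal. None of the 12 phosphate genes passed the test, with a median difference of −0.08 (0.01 without replicate 3), and 1 (8.33%, against 12.7% of all genes), pho8, had all Myo1-GFP libraries below NoIP. The pho1 gene for acid phosphatase had levels of 0.80, 0.85 and −0.13 in Myo1-GFP against 1.02 and 0.60 in NoIP. For pho84, the phosphate transporter, the levels were 0.66, 0.80 and 0.00 against 1.03 and 0.25 in NoIP. The 2 NoIP libraries bracketed both deeper Myo1-GFP libraries at each of these loci. The glycerophosphodiester transporter gene tgp1 had −0.06, −0.11 and −0.74 in Myo1-GFP against 0.16 and −0.22 in NoIP, and pho7, for the transcription factor, −0.01, −0.07 and 0.15 against −0.05 and −0.07. Differences in the list ran from −0.43 for pho8, which was at −1.15 in replicate 3, to 0.09 for csk1.

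Genes for the proteins Myo1 works with gave the same picture. Of 29 listed genes of actin patches and endocytosis 27 were measured, none passed, 2 (7.41%, against 5.15% of all genes) were above NoIP in all Myo1-GFP libraries and 3 (11.1%, against 12.7%) below, and the median difference was 0.01 (−0.03 without replicate 3). Act1, the actin gene, had 1.14, 1.31 and 0.55 in Myo1-GFP against 1.33 and 1.21 in NoIP. The list's highest difference was that of wsp1 (0.24), from levels of −0.19, −0.29 and 0.60 in Myo1-GFP against −0.09 and −0.31 in NoIP, and it was −0.04 without replicate 3. The lowest was that of the calmodulin gene cam1 (−0.31, and −0.03 without replicate 3). The 5 myosin heavy chain genes ranged from −0.09 (myp2) to 0.01 (myo52). The class V myosin gene myo51 had −0.13, −0.13 and −0.12 in Myo1-GFP against −0.13 and −0.13 in NoIP.

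Genes of translation elongation, cytosolic ribosomal proteins and glycolysis had median levels above the typical window in both groups. Their transcription was not examined here. The 7 translation elongation genes had median levels of 1.02, 1.25 and 0.98 in Myo1-GFP against 1.51 and 1.07 in NoIP, and a median difference of −0.15, with no gene free of overlap (tef102 lowest at −0.38, tef101 highest at −0.03). For 115 cytosolic ribosomal protein genes the medians were 0.49, 0.65 and 0.39 against 0.69 and 0.52 in NoIP, with 1 gene (0.870%, against 5.15%) above and 3 (2.61%, against 12.7%) below in all libraries and differences from −0.54 for rpl102 to 0.41 for rpl2801. For 18 glycolysis and fermentation genes they were 0.42, 0.52 and 0.43 against 0.66 and 0.39 in NoIP, with differences from −0.46 for hxk1 to 0.12 for pdc201. In each of these lists the NoIP libraries enclosed or overlapped the deeper Myo1-GFP libraries, with NoIP replicate 1 the highest of all 5. The 8 histone genes measured had a median difference of −0.06, but of 0.09 without replicate 3, when 4 of them (50.0%, against 13.2% of all genes) were above NoIP in both libraries. In high phosphate the direction was the other one, with 6 of the 8 (75.0%, against 21.8% of all genes) below NoIP in both deeper libraries. The median difference of the histone genes there was −0.30. In low phosphate their differences ran from −0.18 for hht2 to 0.29 for hht1. The median difference of 14 stress genes was −0.10, with hsp16 highest at 0.0004, and 3 (21.4%, against 12.7% of all genes) were below NoIP in all libraries, among them sod1, for superoxide dismutase, with 0.95, 1.09 and 0.38 in Myo1-GFP against 1.22 and 1.10 in NoIP (−0.36 ± 0.20, limma adjusted p = 0.97). Meiotic genes, little transcribed in growing cells, had a median difference of −0.03 over the 9 measured of 16 listed, from −0.23 for spn6 to 0.20 for mde4.

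The loci of strain markers were read to see whether the strains differed. In ura4, 7 to 12 of 13 windows were at 0 in the Myo1-GFP libraries and 11 and 12 in the NoIP libraries, so no fold is given. The leu1 level was 0.14, 0.26 and 0.66 in Myo1-GFP against 0.20 and 0.09 in NoIP, and that of puc1 0.10, 0.05 and −0.36 against 0.16 and 0.16 in NoIP. The groups overlapped at leu1. At puc1 all 3 Myo1-GFP libraries were below NoIP, with a difference of −0.23, or −0.09 without replicate 3. The same was so at ade6, with 0.01, −0.05 and −0.48 in Myo1-GFP against 0.16 and 0.10 in NoIP and a difference of −0.30, or −0.15 without replicate 3. At arg3 all 3 Myo1-GFP libraries were above NoIP, with 0.19, 0.26 and 0.25 against 0.15 and 0.17 in NoIP and a difference of 0.07 with and without replicate 3. For his3, covered by 2 windows, the levels were −0.40, −0.85 and −2.46 in Myo1-GFP against −0.68 and −0.44 in NoIP.

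The change between Myo1-GFP and NoIP in low phosphate was also set against that in high phosphate. No gene passed for the difference of differences (0 of 6073, 0%), 28 genes had an unadjusted p under 0.05, and the smallest adjusted p was 1.0. The smallest unadjusted p belonged to gpd1, which makes glycerol 3-phosphate, and was chosen after its values had been seen. Its level was 1.29, 1.25 and 1.45 in Myo1-GFP low phosphate against 1.29 and 1.50 in NoIP low phosphate, so that the groups overlapped. Its Myo1-GFP minus NoIP difference was −0.06 in low phosphate and −1.02 in high phosphate (unadjusted p = 0.0026, limma adjusted p of 1.0).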

How the data were processed

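ChIP-seq signal was deposited for 10 libraries in 200 bp windows placed every 100 bp. Per the submitters' processing notes, Trim Galore 0.3.8, Bowtie2 2.2.4 and the build ASM294v2 were used. The deposited signal had been scaled by the authors in a way not given in the sources used here: each value is a whole multiple of 1 step per library (within 0.1 of a step for 100% of values above 0). The median window held 8 to 311 steps, 11 in Myo1-GFP low phosphate replicate 3. Steps could not be taken as reads, so no count model was used. A depth of 11 steps limits the precision of single windows.

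Here log2(signal + 1) was centred on each library's median window and averaged per Gene ID (6 IDs with run-on text were repaired; 99.0% of IDs matched RefSeq's annotation; 11753 windows without an ID were used only as windows). Genes and windows were tested with limma 3.58.1 (trended variance, all 10 libraries in 4 groups, 6 residual degrees of freedom, Benjamini-Hochberg adjustment, threshold 0.05). The interval upstream of myo1 was tested by an exact permutation test. A run of limma on simulated data gave each gene the same spread in all 10 libraries. It therefore cannot show how the test behaves when some libraries are shallow. Named genes had at least 3 windows: any past the threshold, otherwise the 5 largest increases and 5 largest decreases without overlap and the 5 smallest p, plus myo1, its neighbours and the highest and lowest member of each list, for which no minimum of windows was set. Members and lists were chosen with earlier results of these data known. Alternatives were leaving out each low phosphate library, other sets of libraries, array weights, other pseudocounts, scalings, gene summaries and filters, no trend, and a replicate block. Python 3.11.15, numpy 2.4.6, pandas 2.3.3 and R 4.3.3 were used. The mitochondrial and unplaced windows entered no test.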

Additional observations from a re-analysis of the deposited data

Results flagged for a closer look

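In high phosphate, outside the comparison made here, ura4 stood at −0.97 in Myo1-GFP high phosphate replicate 2, against −11.1 and −6.07 in the other 2 Myo1-GFP high phosphate libraries and against −8.35 and −5.56 in the NoIP high phosphate libraries. It was singled out because it lies above every control library, with 0 of 13 windows at 0 and a median window at 50.2% of that library's typical window. That library enters the low phosphate fit only through the shared estimate of spread. Without it, an alternative chosen after seeing the data, 0 genes and 0 windows passed the threshold in low phosphate.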

How the results depend on the processing

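The count of 0 genes past the threshold, for low phosphate and for low minus high phosphate, was also 0 under each alternative run, each left-out library included. The window count was 0 under each alternative except array weights, which gave 10 windows, all upstream of myo1. The difference in the interval upstream of myo1 was 1.05 to 1.21 with 1 library left out. The median tRNA difference ran from −0.50 to −0.20. Of 46 named genes, 0 passed under any alternative and 16 changed sign under at least 1; the cause was not tested.

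With only the 8 deeper libraries the difference was −0.0080 for coq6, 0.12 for myo1, 0.13 for sec26, −0.044 for wsp1, −0.0099 for pdc201, 0.020 for hht2, −0.011 for hsp16, 0.034 for spn6, −0.11 for SPBTRNAASN.04 and −0.27 for SPRRNA.17. With array weights it was −0.014 for coq6, 0.12 for myo1 and sec26, −0.031 for wsp1, −0.019 for csk1, −0.011 for hsp16, 0.035 for spn6, −0.11 for SPBTRNAASN.04 and −0.27 for SPRRNA.17. Without centring it was −0.0036 for coq6, −0.011 for myo52 and −0.024 for hsp16, and under quantile normalization 0.048 for myo1 and sec26. From the mean signal per gene it was 0.028 for myo1, 0.063 for sec26 and 0.042 for SPNCRNA.1410, from the median window 0.28 for SPNCRNA.1410 and 0.019 for tef101, and from windows above 0 in all 10 libraries 0.058 for SPNCRNA.1410. With 1 low phosphate library left out, the range was −0.053 to 0.095 for coq6, −0.086 to 0.12 for myo1, −0.18 to 0.13 for sec26, −0.044 to 0.40 for wsp1, −0.0099 to 0.21 for pdc201, −0.25 to 0.18 for tef101, −0.36 to 0.020 for hht2, −0.092 to 0.093 for hsp16, −0.38 to 0.034 for spn6, −0.11 to 0.24 for SPBTRNAASN.04, −0.27 to 0.41 for SPRRNA.17, −0.0075 to 0.11 for SPNCRNA.1483 and −0.25 to 0.14 for snu2.

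With the replicate number as a block, 0 genes and 0 windows passed (12 genes at an unadjusted p under 0.05, against 18 without the block), and the difference was 0.054 for myo1, 0.041 for sec26, −0.016 for hsp16, −0.22 for SPBTRNAASN.04 and −0.30 for SPRRNA.17. Only replicates 1 and 2 exist in both groups, and the deviations of equally numbered libraries correlated at −0.26 across genes, so the numbers were not taken as pairs. Depth limits what Myo1-GFP replicate 3 can show, and with 3 against 2 libraries no exact test can go below p = 0.10.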
